A study of Homo sapiens with 18 samples.

Results

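Expression in CHLA-90 cells carrying shERK5-4, a short hairpin RNA directed at ERK5, was compared with expression in CHLA-90 cells carrying the control hairpin shNSC. CHLA-90 is a human neuroblastoma cell line without amplification of the oncogene MYCN. The comparison takes the 3 arrays titled with this line and shERK5-4 and the 3 titled with this line and shNSC, which are 6 of the 18 arrays of the series, and uses all 21448 probes. Both groups were seeded at 250000 cells per well with 1.5 ml of supernatant holding lentivirus of the pLKO vector, which had been made in HEK-293T cells, a human embryonic kidney line used to package virus. Both were grown in medium with 20% fetal bovine serum, and RNA was taken 72 hours after transduction. The only stated difference between the groups is the hairpin. Each group therefore stands for a single hairpin in a single line, and the sources used here give no share of cells that took up virus. The design text calls the 3 samples of a group biological replicates. It does not say whether they came from separate transductions, so p-values measure the spread between these samples. The series also holds CHLA-90 with a different hairpin against ERK5, shERK5-5 (3 arrays), and SK-N-BE(2), a neuroblastoma line with amplified MYCN, with shERK5-4 (3 arrays), shERK5-5 (3 arrays) and shNSC (3 arrays), under the same protocol. The series asks how gene expression in neuroblastoma lines responds when ERK5 is lowered.

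ERK5 is a mitogen-activated protein kinase encoded by MAPK7. It is switched on by the kinase encoded by MAP2K5, which in turn is activated by the kinases of MAP3K2 and MAP3K3, and it phosphorylates transcription factors of the MEF2 family and can act on transcription through its own long carboxyl-terminal tail. In neuroblastoma it has been linked to growth signals that run from the receptor ALK to MYCN. Neuroblastoma cells derive from the sympathetic branch of the neural crest and can sit in an adrenergic state, held by a small circle of transcription factors and marked by catecholamine enzymes and secretory granules, or in a mesenchymal state with features of migrating crest cells.

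Each probe has a log2 signal per array, and a log2 change of 1 is a doubling. A probe was called when its adjusted p was below 0.05 in a limma model of all 18 arrays. The medians of the 6 arrays lay between 6.35 and 6.43. Across probes, the shERK5-4 arrays correlated with each other with r between 0.9954 and 0.9965 and the shNSC arrays with r between 0.994 and 0.9961, while arrays of different groups gave r between 0.982 and 0.9849. Nothing in these values set an array of either group apart from its replicates. Precision depends on how many arrays there are and on how far replicates of a probe spread, since a signal carries no count of reads. The median standard error of a log2 change was 0.20.

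The target transcript was lower in every shERK5-4 array than in every shNSC array. MAPK7 had log2 signals of 7.15, 7.57 and 7.33 with shERK5-4, against 8.37, 8.24 and 8.64 with shNSC. It fell by 1.07 ± 0.20 on the log2 scale (SE; adjusted p = 0.000329 by limma), to 47.7% of its shNSC level, and the groups did not overlap. The exact two-sided permutation p of the 3 against 3 arrays was 0.1, and no smaller value can come from the 20 ways of assigning 6 arrays. The same probe was lower by 0.99 with shERK5-5 in CHLA-90, and the direct difference between the hairpins was -0.08 ± 0.20 (adjusted p = 0.8). The transcript was thus lowered without a detectable difference between hairpins.

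With shERK5-4, 3918 of the 21448 probes were called, which is 18.3%, 2149 higher (10.0%) and 1769 lower (8.25%). The balance depended on the scaling, since arrays centred on their medians gave 1871 higher and 1915 lower. A total of 6029 probes had an unadjusted p below 0.05. The median change of all probes was 0.01, of the higher calls 0.81 and of the lower calls -0.96. Lower calls reached further than higher ones. A change of at least 2-fold was found in 620 higher and 833 lower calls, of at least 4-fold in 37 higher and 176 lower, of at least 8-fold in 4 higher and 40 lower, and of at least 16-fold in 0 higher and 13 lower. The groups did not overlap in 3876 of the 3918 calls. Over all probes, called or not, the groups did not overlap in 37.5%, with shERK5-4 above in 20.9% and below in 16.6%. A gene symbol was known for 3463 of the called probes.

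**Figure D1:**
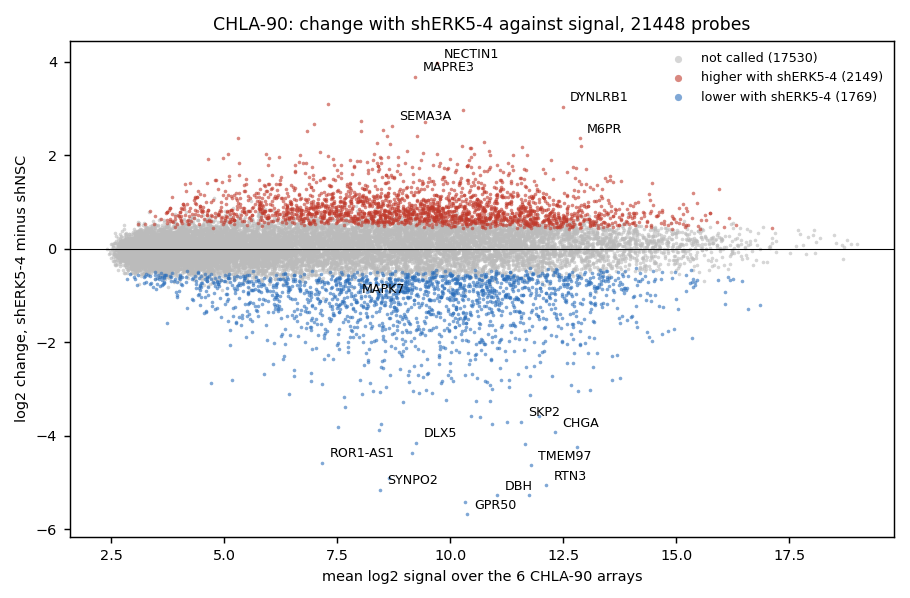
Log2 change between shERK5-4 and shNSC in CHLA-90 (vertical axis) against the mean log2 signal over the 6 arrays (horizontal axis) for 21448 probes, with the 2149 higher calls in red, the 1769 lower calls in blue and the other probes in grey. The lower calls extend to -5.67 (GPR50), the higher calls to 3.97 (NECTIN1).

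The 15 largest rises among named genes lay between 3.97 and 2.29 on the log2 scale. NECTIN1, an immunoglobulin-like adhesion molecule of cell junctions, had log2 signals of 11.51, 11.71 and 11.84 with shERK5-4 and 7.80, 7.21 and 8.14 with shNSC, a 15.7-fold rise (log2 change 3.97 ± 0.25). MAPRE3, which binds growing microtubule ends, had 10.78, 10.94 and 11.49 with shERK5-4 and 7.19, 7.63 and 7.35 with shNSC (3.68 ± 0.24). The groups were more than 3 log2 units apart at their nearest arrays in both genes. DYNLRB1, a light chain of the dynein motor, had 13.97, 13.98 and 14.07 with shERK5-4 and 11.21, 10.67 and 11.01 with shNSC (3.04 ± 0.18). SEMA3A, a secreted cue that repels growing axons, had 9.93, 10.08 and 10.10 with shERK5-4 and 7.20, 7.48 and 7.53 with shNSC (2.63 ± 0.16). Among these 4 genes the shERK5-4 arrays of DYNLRB1 and SEMA3A lay within 0.2 log2 units of each other. FBRSL1 rose by 3.11 ± 0.28, PLPPR2, a membrane protein related to lipid phosphatases, by 2.98 ± 0.23, and GRK2, the kinase that phosphorylates activated G protein-coupled receptors, by 2.73 ± 0.37. FBRSL1 had 8.23, 8.83 and 9.5 with shERK5-4 and 5.77, 5.41 and 6.06 with shNSC, and GRK2 had 8.91, 9.63 and 9.66 with shERK5-4 and 6.83, 6.10 and 7.08 with shNSC. Replicates of these genes spread more widely than those of DYNLRB1. SFXN3, a mitochondrial carrier, EPB41L4A, a membrane-skeleton protein, HCN2, a pacemaker cation channel, MAP3K13, a kinase upstream of JNK, and BHLHE40, a transcriptional repressor, rose by between 2.70 (SFXN3) and 2.52 (BHLHE40). ATG4D, a protease that processes autophagy proteins, rose by 2.42 ± 0.17, M6PR, a receptor that sorts enzymes to lysosomes, by 2.36 ± 0.18, and FKBP14, a prolyl isomerase of the endoplasmic reticulum, by 2.29 ± 0.20. All 15 of these genes had adjusted p of 8.41e-06 or less. They were picked among called genes whose groups did not overlap, so the lack of overlap was fixed in advance.

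The 15 largest falls among named genes lay between -5.67 and -3.70 on the log2 scale. GPR50, an orphan receptor related to melatonin receptors, had log2 signals of 7.69, 7.30 and 7.64 with shERK5-4 and 13.11, 13.11 and 13.43 with shNSC, a fall to 1.96% of the shNSC level (log2 change -5.67 ± 0.22). DBH, the enzyme that makes noradrenaline from dopamine, had 8.13, 8.30 and 8.78 with shERK5-4 and 13.62, 13.45 and 13.95 with shNSC (-5.27 ± 0.25). TMT1A, a methyltransferase, had 8.95, 9.04 and 9.36 with shERK5-4 and 14.29, 14.30 and 14.57 with shNSC (-5.27 ± 0.24). The gap between the groups exceeded 4 log2 units in each of these 3 genes. SYNPO2, an actin-binding protein, had 5.86, 5.83 and 5.94 with shERK5-4 and 10.98, 11.11 and 11.01 with shNSC, the smallest adjusted p of all named genes (-5.16 ± 0.16; adjusted p = 1.28e-15). RTN3, a reticulon that shapes the endoplasmic reticulum, had 9.56, 9.49 and 9.74 with shERK5-4 and 14.59, 14.66 and 14.71 with shNSC (-5.06 ± 0.19). PRR16, a protein tied to cell size, fell by 4.91 ± 0.17 and TMEM97, a sterol-linked membrane protein also known as the sigma-2 receptor, by 4.63 ± 0.17. These falls left SYNPO2 and PRR16 near 6 on the log2 scale, close to the array medians, whereas RTN3 and TMEM97 stayed above 9 in all 3 shERK5-4 arrays. CPNE2, a copine that binds membranes in the presence of calcium, fell by 4.36 ± 0.25, LRRN3, a neuronal leucine-rich repeat protein, by 4.23 ± 0.19, and DLX5, a homeobox transcription factor, by 4.15 ± 0.37. CHGA, the granule protein chromogranin A, fell by 3.92 ± 0.20 and SKP2, the F-box protein that marks the cell cycle inhibitor p27 for destruction, by 3.70 ± 0.17. SKP2 had 9.67, 9.78 and 9.70 with shERK5-4 and 13.34, 13.45 and 13.45 with shNSC, so the arrays of each group lay within 0.2 log2 units of each other. TMEM9B and the secreted protein CCDC3 fell by 3.88 and 3.82. ROR1-AS1, an antisense transcript of the receptor gene ROR1, fell by 4.57 ± 0.24 and ROR1 itself by 1.07 ± 0.16. Whether the array's probes tell these strands apart is not stated in the sources used here. All 15 had adjusted p of 2.09e-08 or less, and they too were picked among called genes whose groups did not overlap.

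**Figure D2:**
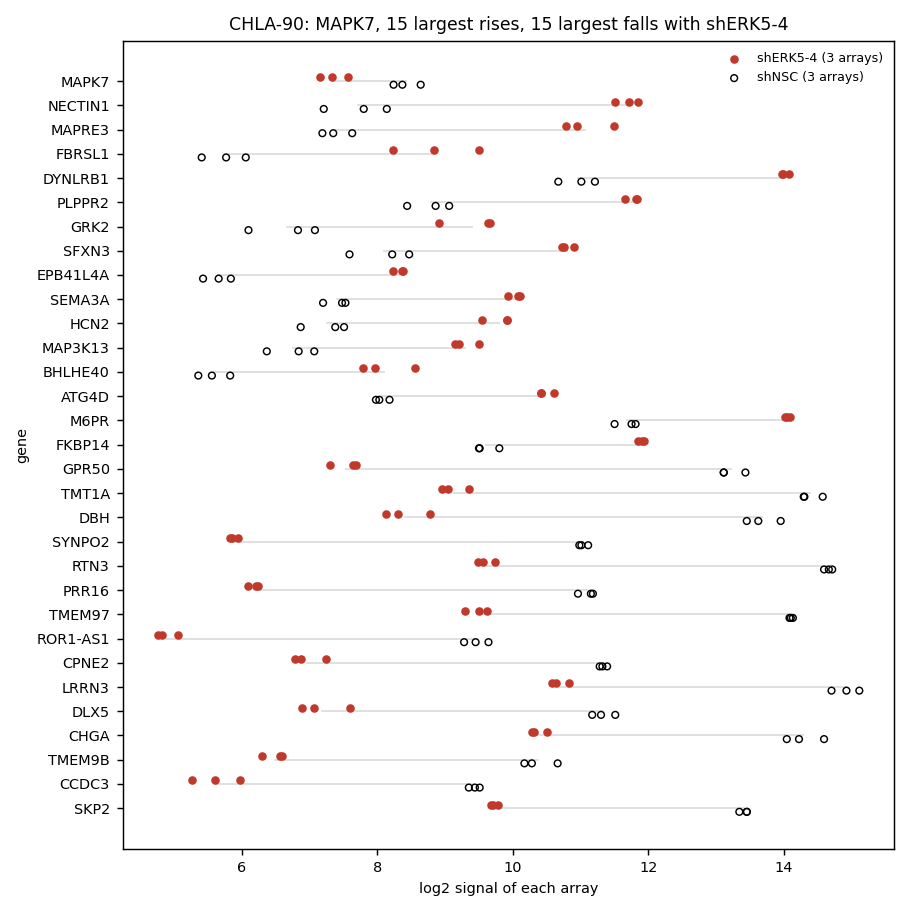
Log2 signal of each CHLA-90 array (horizontal axis; filled red, the 3 shERK5-4 arrays; open, the 3 shNSC arrays; grey line, between the group means) for MAPK7, the 15 genes with the largest rises and the 15 with the largest falls. The rises and falls were picked among called genes whose groups did not overlap. MAPK7, which was not picked that way, did not overlap either.

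In the list of the ERK5 cascade, calls fell on the target, MYCN, MAP3K2, MEF2C and KLF6. Of 15 measured members, which are cascade kinases, MEF2 and KLF factors and reported targets, 2 were higher and 3 lower. That is 33.3% called, against 18.3% of all probes, and the median change was -0.12. MYCN, the oncogene that drives part of neuroblastomas, had 6.71, 6.93 and 7.10 with shERK5-4 and 8.78, 8.63 and 8.99 with shNSC. It fell by 1.89 ± 0.17 (adjusted p = 3.46e-08), and the groups did not overlap. The kinase genes MAP2K5 (0.06) and MAP3K3 (0.22), the factor genes MEF2A (-0.31), MEF2D (0.52), KLF2 (-0.16) and KLF4 (-0.14), and JUN (0.65), FOS (-0.22), SGK1 (0.30) and MYC (-0.12) were not called. MYC was dim on all 6 arrays, between 3.28 and 3.78. The calls of MAP3K2 (0.62), MEF2C (0.62) and KLF6 (-0.73) were each lost when single arrays were left out. The change of KLF6 then stayed between -0.785 and -0.665. The higher count of 2 became 0 without shNSC replicate 1, shNSC replicate 3 or shERK5-4 replicate 3 and 1 without shERK5-4 replicate 1 or 2, and KLF6 was not called without any 1 of the 6 arrays (adjusted p between 0.0548 and 0.105).

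Feedback genes of the wider MAP kinase pathway, which are transcribed when ERK1 and ERK2 signal, went both ways, with more lower than higher. Of 28 measured, 9 were lower and 4 higher (46.4% called, against 18.3% of all probes), with a median of -0.19. SPRY1, a feedback inhibitor of receptor signalling, had 5.63, 5.73 and 6.21 with shERK5-4 and 7.72, 7.49 and 7.38 with shNSC (-1.67 ± 0.20). SPRY2 fell by 1.07 ± 0.14, the phosphatase gene DUSP4 by 1.00 ± 0.16, and the ETS factor genes ETV1 and ETV4 by 0.84 and 1.14. PHLDA1, an early growth factor response gene, fell by 1.57 ± 0.18. The immediate early gene IER3 rose by 0.76 ± 0.18, with 14.29, 14.35 and 14.64 with shERK5-4 against 13.61, 13.52 and 13.86 with shNSC.

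Transcription factors that hold the adrenergic state held lower calls and none higher. Of 18 measured, 11 were lower and 0 higher, and the median change was -0.98. Of all probes 8.25% were lower and 10.0% higher. The lists here and below were chosen with earlier results of these data known, so their counts are not a test. ISL1, a LIM homeobox factor of sympathetic neurons, had 7.17, 7.20 and 7.57 with shERK5-4 and 10.56, 10.74 and 10.48 with shNSC (-3.28 ± 0.19; 10.3% of shNSC). HAND1, a basic helix-loop-helix factor of the crest lineage, had 8.15, 8.28 and 8.43 with shERK5-4 and 11.83, 11.12 and 11.62 with shNSC (-3.24 ± 0.29). Neither gene had an shERK5-4 array within 2 log2 units of an shNSC array. PHOX2A, a homeobox factor required for noradrenergic identity, had 9.21, 9.35 and 9.68 with shERK5-4 and 11.51, 11.47 and 12.08 with shNSC (-2.27 ± 0.24). INSM2 fell by 2.13 ± 0.20, TFAP2B by 1.94 ± 0.19 and KLF7, a factor of sensory and sympathetic neurons, by 1.77 ± 0.16. The members not called were HAND2 (-0.54), GATA2 (-0.37), EYA1 (-0.35), SIX3 (-0.31), INSM1 (-0.09), SATB1 (0.03) and SOX11 (0.30). HAND2 stood just outside the threshold (adjusted p = 0.0551) with groups that did not overlap.

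Catecholamine and granule genes, which make, store and take up noradrenaline, showed the same direction. Of 23 measured, 14 were lower and 1 was higher (65.2% called, against 18.3% of all probes), with a median of -0.72. Beside DBH and CHGA, QDPR, which regenerates the cofactor of tyrosine hydroxylase, had 5.94, 6.07 and 6.19 with shERK5-4 and 8.95, 9.17 and 9.57 with shNSC (-3.16 ± 0.21). SLC6A2, the noradrenaline transporter through which MIBG enters neuroblastoma cells, had 13.73, 13.40 and 13.28 with shERK5-4 and 15.37, 15.36 and 15.59 with shNSC (-1.97 ± 0.18). DDC, which makes dopamine, had 10.37, 10.51 and 10.45 with shERK5-4 and 12.12, 12.29 and 12.27 with shNSC (-1.78 ± 0.19). In these 3 genes the arrays of each group lay within 0.7 log2 units and the groups did not overlap. The neuropeptide gene GAL fell by 2.01 ± 0.17. TH, the enzyme that opens the pathway, was singled out after its value was seen. It had 14.73, 15 and 15.13 with shERK5-4 and 14.91, 14.60 and 15.18 with shNSC. Its groups overlapped and its change was 0.06 (95% confidence interval -0.47 to 0.583, adjusted p = 0.925). The enzymes of the pathway therefore did not move alike in these arrays.

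The labelled cell type was checked with markers. Neuroblastoma markers were bright in both groups, with a mean log2 signal over 11 markers of 11.5 to 11.8 in the shERK5-4 arrays and 13.3 to 13.5 in the shNSC arrays, and 7 of the 11 fell and 0 rose (median -1.64). ELAVL4, a neuronal RNA-binding protein, fell by 1.76 ± 0.16 and CHGB by 1.64 ± 0.20, while TH, GAP43 (0.19), STMN2 (-0.39) and HAND2 were not called. Of 10 fibroblast markers 4 fell and 0 rose, ACTA2, DCN, PDGFRA and PDGFRB, while COL1A1, COL1A2, LUM, FAP, S100A4 and THY1 were not called. Over all probes 8.25% were lower and 10.0% higher. The fibroblast markers' summed signal on the linear scale was 4543 to 4853 in the shERK5-4 arrays and 10725 to 11391 in the shNSC arrays, with COL1A1 between 4.76 and 5.66 on the log2 scale over the 6 arrays and FAP between 2.80 and 3.77. Markers of Schwann cells (6 measured), endothelial cells (9) and blood or immune cells (9) gave 0 calls, with mean log2 signals between 3.64 and 4.79 in both groups. In RNA from whole cultures, fewer cells of a type and less RNA per cell cannot be told apart.

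Neuronal genes went both ways. Of 29 measured, 9 were lower and 4 higher (44.8% called, against 18.3% of all probes), with a median of 0.01. SYT1, a calcium sensor of synaptic vesicles, had 12.06, 12.03 and 11.70 with shERK5-4 and 14.19, 14.24 and 14.07 with shNSC (-2.24 ± 0.17). DCX, a microtubule protein of migrating neurons, had 11.03, 10.98 and 10.91 with shERK5-4 and 13.11, 13.18 and 13.18 with shNSC (-2.18 ± 0.17), and the splicing regulator RBFOX1 fell by 1.51 ± 0.15. In the opposite direction, STMN4, a tubulin-binding stathmin, had 10.96, 11.31 and 10.88 with shERK5-4 and 9.51, 8.88 and 9.33 with shNSC (1.81 ± 0.19). ELAVL3, a relative of ELAVL4 with the same kind of RNA-binding domains, rose by 1.75 ± 0.21, so this pair of related genes moved in opposite directions. The higher count was 2 without shNSC replicate 1 or 2 or shERK5-4 replicate 1 or 3.

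**Figure D3:**
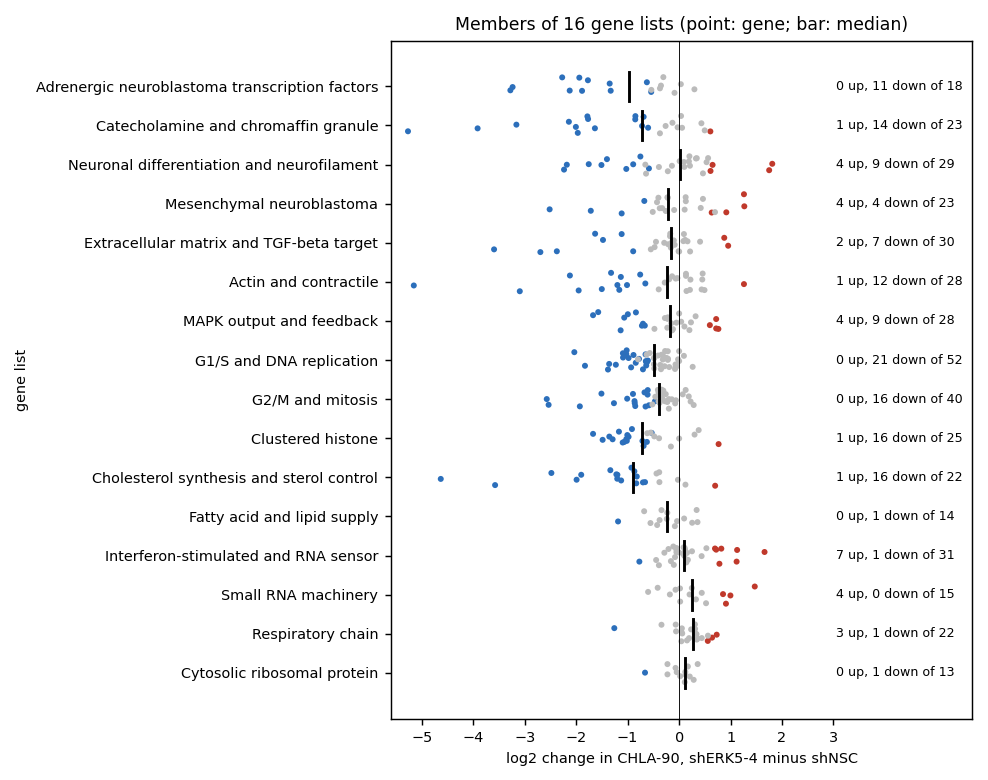
Log2 change between shERK5-4 and shNSC in CHLA-90 (horizontal axis) for the measured members of 16 gene lists (points; red, higher; blue, lower; grey, not called), with the list median as a black bar and the counts at the right. The medians of the adrenergic factors (-0.98) and of cholesterol synthesis (-0.90) lie furthest to the left, against 0.01 for all probes.

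Cholesterol synthesis was the list with the largest share of its members called, 77.3% against 18.3% of all probes. Its members too were chosen with earlier results of these data known. The cell makes cholesterol from acetyl-CoA through mevalonate. The transcription factor encoded by SREBF2 raises the genes of this route when membrane sterol is low, SCAP carries it to its site of activation and INSIG1 holds it back. Of 22 measured genes, 16 were lower and 1 was higher, with a median of -0.90. SREBF2 itself had 8.94, 8.60 and 8.47 with shERK5-4 and 12.12, 12.06 and 12.56 with shNSC, a fall to 8.38% of its shNSC level (-3.58 ± 0.19; adjusted p = 1.1e-11). HMGCS1, which forms the precursor of mevalonate, had 9.98, 9.60 and 9.58 with shERK5-4 and 11.80, 11.51 and 11.83 with shNSC (-1.99 ± 0.17). Neither gene had overlapping groups. INSIG1 had 7.24, 6.52 and 6.82 with shERK5-4 and 9.18, 9.65 and 9.20 with shNSC (-2.48 ± 0.22). MSMO1, a sterol demethylase, fell by 1.90 ± 0.16 and ACAT2, which makes acetoacetyl-CoA, by 1.22 ± 0.15. Members not called were HSD17B7 (-0.44), MVD (-0.39), LSS (-0.38), TM7SF2 (-0.02) and PMVK (0.12). TMEM97 is a member of this list. SCAP was the higher member (0.70), named after its value was seen, a call lost without shNSC replicate 1 or 2 or without any 1 of the shERK5-4 replicates. Among 14 genes of fatty acid supply, 1 was lower, the desaturase SCD (-1.19 ± 0.16), and 0 were higher.

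Promoter letters are shown for SREBF2 and HMGCS1, the regulator and the entry enzyme of this route, as 250 bases before and 50 after the start of the gene in RefSeq on GRCh38.p14, 5′ to 3′ on the strand of the gene. Capitals mark the sterol regulatory element, in the form known from the LDL receptor gene with 1 free base, and the CCAAT box, which reads ATTGG on the opposite strand. SREBF2 is at chr22:41832855-41833154 on the plus strand and HMGCS1 at chr5:43313363-43313662 on the minus strand, where the first of 2 listed starts was taken.
SREBF2: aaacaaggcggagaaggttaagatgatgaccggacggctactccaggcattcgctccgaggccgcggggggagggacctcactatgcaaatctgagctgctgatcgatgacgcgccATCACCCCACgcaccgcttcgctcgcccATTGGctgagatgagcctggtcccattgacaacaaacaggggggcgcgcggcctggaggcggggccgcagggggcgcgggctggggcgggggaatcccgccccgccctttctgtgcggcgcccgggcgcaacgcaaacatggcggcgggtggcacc
HMGCS1: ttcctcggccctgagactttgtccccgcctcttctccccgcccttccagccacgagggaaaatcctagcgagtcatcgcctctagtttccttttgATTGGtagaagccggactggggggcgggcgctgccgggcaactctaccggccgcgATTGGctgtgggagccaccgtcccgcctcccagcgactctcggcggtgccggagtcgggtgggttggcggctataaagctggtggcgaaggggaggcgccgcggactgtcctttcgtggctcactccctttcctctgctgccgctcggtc
Searched on both strands, the sterol regulatory element was found in 1 of the 20 list members with a promoter in the table, SREBF2, and in 54 of 35116 promoters of the same length (0.154%). The CCAAT box was found in 16 of the 20, and in 34.6% of all promoters. It was in 12 of the 14 lower members and 4 of the 5 not called, so its presence did not separate them. The box was also in 26 of 34 promoters of the mitotic list and 24 of 45 of the G1/S list, both described below. A match of letters is a description and not a measured site.

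Genes of DNA replication and the G1/S transition held lower calls and none higher. Of 52 measured, 21 were lower (40.4%, against 8.25% of all probes), and the median was -0.49. CDK6, the kinase that with D cyclins opens the cell cycle, had 9.64, 9.94 and 9.68 with shERK5-4 and 11.58, 11.90 and 11.89 with shNSC (-2.04 ± 0.18). DTL, the adaptor of a ubiquitin ligase active in S phase, had 11.70, 11.69 and 11.91 with shERK5-4 and 13.54, 13.60 and 13.65 with shNSC (-1.83 ± 0.15). CDC6, which loads the replicative helicase, had 10.86, 10.74 and 11.01 with shERK5-4 and 12.36, 12.26 and 12.07 with shNSC (-1.36 ± 0.19). The groups stood at least 1 log2 unit apart in all 3 genes. E2F8 fell by 1.38 ± 0.18, RRM2, a subunit of ribonucleotide reductase, by 1.23 ± 0.20 and the helicase subunit MCM3 by 1.02 ± 0.16. CDK4, a kinase of the same step that was looked up after the values were known, had a change of 0.00 and overlapping groups.

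Promoter letters are shown for CDC6 and DTL, with capitals marking the E2F letters. CDC6 is at chr17:40287629-40287928 and DTL at chr1:212035498-212035797, both on the plus strand of GRCh38.p14.
CDC6: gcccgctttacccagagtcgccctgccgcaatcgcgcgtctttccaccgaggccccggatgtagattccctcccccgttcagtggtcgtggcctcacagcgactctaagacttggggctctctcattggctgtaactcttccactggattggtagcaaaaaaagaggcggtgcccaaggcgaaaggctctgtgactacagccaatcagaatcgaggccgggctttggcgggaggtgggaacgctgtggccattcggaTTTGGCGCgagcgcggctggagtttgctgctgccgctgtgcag
DTL: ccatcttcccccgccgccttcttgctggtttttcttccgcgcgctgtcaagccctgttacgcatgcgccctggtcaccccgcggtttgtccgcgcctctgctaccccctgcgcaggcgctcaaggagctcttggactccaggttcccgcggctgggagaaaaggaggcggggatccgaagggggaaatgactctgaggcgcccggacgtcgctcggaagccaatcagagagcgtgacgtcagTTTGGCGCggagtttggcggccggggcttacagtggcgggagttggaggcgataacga
The letters TTTGGCGC, TTTCGCGC, TTTCCCGC and TTTGCCGC were searched on both strands. At least 1 of them was in 23 of the 45 list members with a promoter (51.1%), against 3.31% of all 35116 promoters. The share was 8 of 17 among lower members and 15 of 28 among members not called, so the letters did not mark the genes that fell. In the mitotic list, described next, 3 of 34 promoters held them (8.82%).

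Mitotic genes also held lower calls and none higher. Of 40 measured, 16 were lower (40%, against 8.25% of all probes) and 0 higher, with a median of -0.40. The lower count was 11 to 16 when each array was left out. CCNA2, the cyclin of S phase and early mitosis, had 12.06, 11.80 and 11.81 with shERK5-4 and 14.42, 14.47 and 14.39 with shNSC (-2.54 ± 0.15). BIRC5, which encodes survivin of the chromosomal passenger complex, had 7.75, 7.29 and 7.78 with shERK5-4 and 10.14, 10.22 and 10.18 with shNSC (-2.57 ± 0.23). FOXM1, the transcription factor of the mitotic program, had 11.72, 11.76 and 11.76 with shERK5-4 and 13.63, 13.58 and 13.82 with shNSC (-1.93 ± 0.15). Arrays of each group were within 0.5 log2 units in these 3 genes. The phosphatase CDC25C fell by 1.51 ± 0.23, and AURKB and CDCA8, further members of the passenger complex, by 1.27 ± 0.19 and 0.90 ± 0.19. The proliferation marker MKI67 (0.13) and the mitotic kinase PLK1 (0.19), both looked up after the values were known, were not called. Clustered histone genes, transcribed in S phase, were lower in 16 of 25 and higher in 1, with a median of -0.71. That is 68% called, against 18.3% of all probes. H1-4 fell by 1.67 ± 0.34, H2AC4 by 1.49 ± 0.20, H2BC5 by 1.36 ± 0.24, H2AC8 by 1.17 ± 0.23, H4C9 by 1.03 ± 0.18 and H4C4 by 1.01 ± 0.17. These genes share sequence within each family, so probes may not separate neighbouring copies.

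Growth arrest and cell death genes were called in both directions. Called were 35% of p53 targets, 40% of BCL2 family genes and 27.8% of CDK inhibitor and arrest genes, against 18.3% of all probes. RBL2, a pocket protein related to RB1, fell by 1.67 ± 0.19 and TXNIP, an inhibitor of thioredoxin, rose by 1.15 ± 0.25. BCL2, which blocks mitochondrial cell death, had 7.45, 7.03 and 7.13 with shERK5-4 and 9.75, 9.78 and 9.69 with shNSC (-2.54 ± 0.18). BAX, its antagonist, fell by 0.93 ± 0.17 and BAD, a sensor of survival signals, rose by 1.20 ± 0.21. MDM2, the ligase that restrains p53, had 10.60, 10.50 and 10.58 with shERK5-4 and 9.18, 9.10 and 8.93 with shNSC (1.49 ± 0.17). RRM2B rose by 1.72 ± 0.21 and TP53INP1 fell by 1.66 ± 0.21, so p53 target genes did not move as a block. Of 20 p53 targets 4 were higher and 3 lower (median 0.00), and the higher count was 2 without shNSC replicate 1 or 2 or shERK5-4 replicate 1 or 3. Of 15 BCL2 family genes 4 were lower and 2 higher, and the higher count was 1 without shNSC replicate 2 or shERK5-4 replicate 2. Of 18 CDK inhibitor and arrest genes 3 were lower and 2 higher. Their higher count was 1 without shNSC replicate 1, 2 or 3 or shERK5-4 replicate 1 or 3, and their lower count 1 without shNSC replicate 2 or shERK5-4 replicate 3.

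Matrix and contractile genes held more lower than higher calls, and mesenchymal genes held as many of each. Of 30 matrix and TGF-beta target genes 7 were lower and 2 higher (30% called, median -0.16). Of 28 actin and contractile genes 12 were lower and 1 was higher (46.4% called, median -0.24). Of 23 mesenchymal neuroblastoma genes 4 were lower and 4 higher (34.8% called, median -0.22). The share of all probes called was 18.3%, with 8.25% lower and 10.0% higher. TGFBI, a matrix protein induced by TGF-beta, had 8.67, 8.80 and 9.08 with shERK5-4 and 12.54, 12.17 and 12.63 with shNSC (-3.60 ± 0.20). The proteoglycan BGN fell by 2.70 ± 0.23, the matricellular protein THBS1 by 2.38 ± 0.21 and FBN1, a microfibril protein, by 1.48 ± 0.19. In the contractile list SYNPO2 stood first, followed by SYNPO, an actin-bundling protein, with 6.87, 6.39 and 6.26 with shERK5-4 and 9.68, 9.26 and 9.87 with shNSC (-3.10 ± 0.22). ACTA2, smooth muscle actin, had 9.90, 10.03 and 10.01 with shERK5-4 and 12, 12.23 and 12.08 with shNSC (-2.12 ± 0.20). The groups did not overlap in either gene. CALD1, CNN1 and SYNM fell by 1.95, 1.32 and 1.16. Of the crest transcription factors, SNAI2 fell by 2.52 ± 0.31 and TWIST1 by 1.72 ± 0.27, whereas the coactivator genes YAP1 and MAML2 rose by 1.27 ± 0.27 and 1.26 ± 0.21 and the receptor gene NOTCH2 by 0.92 ± 0.21. DCN and ACTA2 belong to the fibroblast markers whose summed signal is given above, and the part of those markers in these lists was not tested.

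Of 35 receptor tyrosine kinase and growth factor genes 11 were lower, 0 higher and 24 not called, with a median of -0.11. That is 31.4% called, against 18.3% of all probes. GFRA2, the co-receptor of neurturin, had 8.22, 7.88 and 7.96 with shERK5-4 and 10.90, 10.69 and 10.72 with shNSC (-2.75 ± 0.23). IGFBP5, a binding protein of insulin-like growth factors, fell by 2.87 ± 0.28 and IGFBP7 by 1.71 ± 0.21. ALK, the receptor kinase mutated in part of neuroblastomas, had 7.88, 7.21 and 7.66 with shERK5-4 and 9.58, 9.35 and 9.72 with shNSC (-1.97 ± 0.28). Its nearest arrays of the groups were more than 1 log2 unit apart. Of 34 BMP, Notch and WNT genes 10 were lower and 4 higher (41.2% called, median -0.25). The higher count of this list was 2 without shNSC replicate 1 or 3 or shERK5-4 replicate 1 or 2. DLK1, a Notch ligand of chromaffin precursors, fell by 3.08 ± 0.18 and DKK1, a secreted WNT inhibitor, by 3.04 ± 0.23. DLK1 had 7.74, 7.88 and 7.72 with shERK5-4 and 10.61, 10.75 and 11.21 with shNSC. LGR5, an R-spondin receptor, fell by 1.95 ± 0.16 and the WNT effector LEF1 by 1.39 ± 0.21. Of 39 axon guidance and adhesion genes 15 were lower and 3 higher (46.2% called, median -0.39), with SEMA3A and NECTIN1 among the higher. CDH11, a cadherin, fell by 3.09 ± 0.22, the integrin ITGA6 by 2.05 ± 0.20, NECTIN3, a binding partner of NECTIN1, by 2.00 ± 0.21 and SLIT3, a secreted guidance cue, by 1.44 ± 0.16. NECTIN1 and NECTIN3 thus moved in opposite directions.

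Genes of RNA sensing, small RNAs and the lysosome held more higher than lower calls, as did all probes (10.0% higher, 8.25% lower). That balance over all probes depended on the scaling. Of 31 interferon-stimulated and RNA sensor genes 7 were higher and 1 was lower (median 0.10). RIGI, a sensor of double-stranded RNA, had 7.73, 7.38 and 7.07 with shERK5-4 and 5.80, 6.09 and 5.31 with shNSC (1.66 ± 0.25). IRF9, which carries interferon signals to the nucleus, rose by 1.13 ± 0.23, IFI44 by 1.12 ± 0.23 and the kinase EIF2AK2 by 0.72 ± 0.15, while OAS3 fell by 0.77 ± 0.17. At 22.6% of the list against 10.0% of all probes the higher calls are a minority of it, and ISG15 (0.08) and MX1 (-0.08), looked up after the values were known, were not called. Of 15 genes of small RNA machinery 4 were higher and 0 lower (26.7% called, against 18.3% of all probes, median 0.25). LIN28B, which blocks maturation of let-7, had 8.80, 9.43 and 8.89 with shERK5-4 and 7.62, 7.81 and 7.28 with shNSC (1.47 ± 0.22). TNRC6A and TNRC6B, scaffolds of the silencing complex, rose by 1.00 ± 0.26 and 0.85 ± 0.17 and AGO4 by 0.91 ± 0.18. Without shNSC replicate 2 the list had 5 higher and 1 lower. Of 33 lysosome and autophagy genes 6 were higher and 3 lower (27.3% called, median 0.24), led by ATG4D and M6PR. ATG9A, the membrane protein that seeds autophagosomes, fell by 2.18 ± 0.19.

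A further 6 lists held from 7.69% (ribosomal protein genes) to 43.8% (glycosphingolipid genes) called, against 18.3% of all probes. Of 22 MYC target and ribosome biogenesis genes 2 were lower and 1 was higher (13.6% called, median 0.06), with SRM, the spermidine synthase, at 9.77, 10.07 and 10.67 with shERK5-4 and 13.83, 13.55 and 13.85 with shNSC (-3.57 ± 0.25). The other 2 calls, TFB2M (-0.52) and UBTF (0.65), were lost in turn when single arrays were left out, UBTF without shNSC replicate 1, 2 or 3 or shERK5-4 replicate 2 or 3 and TFB2M without shNSC replicate 1 or 2 or shERK5-4 replicate 1 or 3. Of 13 cytosolic ribosomal protein genes 1 was lower, RPS18 (-0.66 ± 0.15). Of 22 respiratory chain genes 3 were higher and 1 was lower (18.2% called), and the higher count was 1 without shNSC replicate 2 or shERK5-4 replicate 2. UQCRC2, a core subunit of complex III, fell by 1.26 ± 0.21. GLUD1, the mitochondrial glutamate dehydrogenase, had 9.52, 9.47 and 9.79 with shERK5-4 and 11.70, 11.76 and 11.83 with shNSC (-2.17 ± 0.17) in a list of 14 glutamate genes with 2 lower and 0 higher. In 28 ATF4 and amino acid response genes 5 were lower and 3 higher, among them ASNS, the asparagine synthetase, which fell by 1.12 ± 0.18, and the amino acid carrier SLC7A1, which rose by 0.96 ± 0.19. The enzyme B4GALT5, which adds galactose to glucosylceramide, fell by 1.56 ± 0.15 and UGCG, which makes glucosylceramide, rose by 0.96 ± 0.21, in a glycosphingolipid list of 16 with 5 lower and 2 higher. That higher count was 1 without shNSC replicate 1 or 3 or shERK5-4 replicate 1 or 2.

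The hairpins shERK5-4 and shERK5-5 were compared with each other directly in CHLA-90. The difference uses no control array, though all 18 arrays enter its estimate of the spread. With shERK5-4, 3174 probes were higher (14.8%) and 2651 lower (12.4%) than with shERK5-5, together 5825 or 27.2% of all probes. Against shNSC, shERK5-5 had 2721 calls (12.7%), 1255 higher (5.85%) and 1466 lower (6.84%), set beside the 3918 of shERK5-4, and both of these comparisons use the same 3 shNSC arrays. The genes named next were picked among those called with shERK5-4 against shNSC, which uses the same shERK5-4 arrays. Genes moved by shERK5-5 alone could therefore not enter. DLX5 averaged 7.18 with shERK5-4, against 13.81 with shERK5-5, a difference of -6.63 ± 0.36 (adjusted p = 1.19e-11). Against shNSC it was lower by 4.15 with shERK5-4 and higher by 2.48 with shERK5-5, so the hairpins moved it in opposite directions. GPR50 differed by -5.94 ± 0.22, PRR16 by -5.70 ± 0.17, RTN3 by -5.23 ± 0.19, DBH by -4.77 ± 0.25 and TMT1A by -4.74 ± 0.24. With shERK5-5 alone, GPR50 (0.27), RTN3 (0.18), DBH (-0.50) and TMT1A (-0.53) were not called against shNSC, while PRR16 was higher (0.79, adjusted p = 0.00364). In the other direction YAP1 differed by 3.24 ± 0.27, VSNL1, a neuronal calcium sensor, by 3.47 ± 0.20, ZDHHC20, a palmitoyltransferase, by 3.39 ± 0.22, ARL2BP by 3.17 ± 0.21 and ZNF772 by 3.12 ± 0.19. MAGEC1, a cancer-testis gene, differed by 4.52 ± 0.18, mostly through a value of -3.98 with shERK5-5. Its change with shERK5-4 was 0.53 (adjusted p = 0.0398), a call lost without any 1 of the 6 arrays (adjusted p between 0.0638 and 0.124).

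Members of the gene lists were compared between hairpins by the same direct test, probe by probe, and no list was tested as a group. Of all probes 12.4% were lower and 14.8% higher with shERK5-4 than with shERK5-5. Sterol genes were lower with shERK5-4 than with shERK5-5 in 14 of 22 and higher in 1, and against shNSC the list median was -0.90 with shERK5-4 and -0.14 with shERK5-5. SREBF2 differed by -3.51 ± 0.19. Adrenergic factors were lower with shERK5-4 than with shERK5-5 in 10 of 18 and higher in 0, with medians against shNSC of -0.98 with shERK5-4 and 0.04 with shERK5-5. MYCN was lower by 1.89 with shERK5-4 and higher by 0.97 with shERK5-5, a difference of -2.86 ± 0.17. Mitotic genes were lower with shERK5-4 in 19 of 40 and higher in 1, with medians against shNSC of -0.40 with shERK5-4 and 0.09 with shERK5-5. G1/S genes were lower with shERK5-4 in 15 of 52 and higher in 6, with medians against shNSC of -0.49 with shERK5-4 and -0.36 with shERK5-5. CDC6 fell by 1.36 with shERK5-4 and by 1.56 with shERK5-5, with a difference of 0.20 ± 0.19 that was not called. MAP kinase feedback genes were lower with shERK5-4 than with shERK5-5 in 10 of 28 and higher in 1. For some of the largest changes no difference between hairpins was detected, among them NECTIN1 (difference 0.28, 95% confidence interval -0.244 to 0.811), DYNLRB1 (-0.24, -0.615 to 0.142) and ATG4D (-0.02, -0.373 to 0.326), picked after their values were seen.

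**Figure D4:**
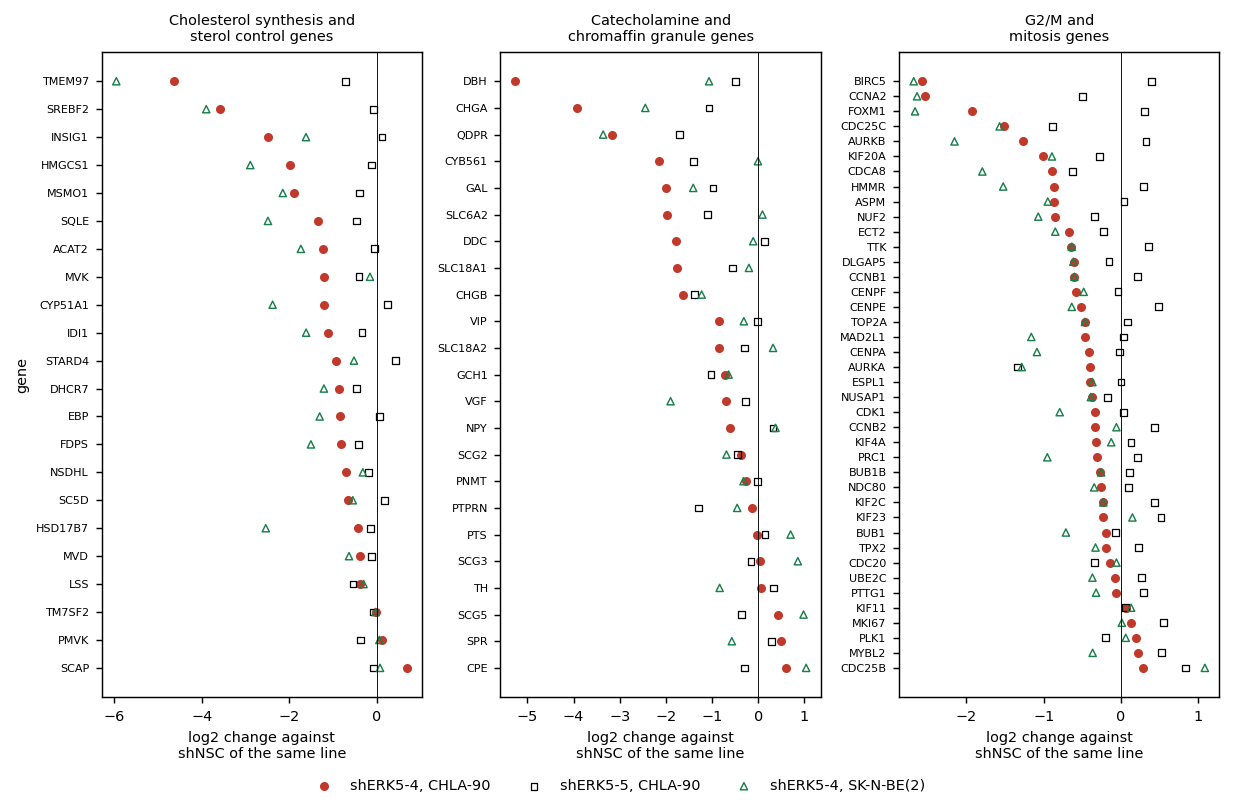
Log2 change against shNSC of the same line (horizontal axis) for each measured gene of 3 lists, with shERK5-4 in CHLA-90 as filled red circles, shERK5-5 in CHLA-90 as open squares and shERK5-4 in SK-N-BE(2) as open triangles. Sterol genes fall with shERK5-4 in both lines (medians -0.90 in CHLA-90 and -1.41 in SK-N-BE(2)), while the shERK5-5 median is -0.14.

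The same hairpin in SK-N-BE(2) gave 5133 calls (23.9%), and the lines share no array. Of the 2149 higher calls in CHLA-90, 1165 were also higher in SK-N-BE(2), which is 54.2% of the calls of CHLA-90 and 44.5% of the 2616 of SK-N-BE(2). Of the 1769 lower calls, 1072 were also lower in SK-N-BE(2), 60.6% of the calls of CHLA-90 and 42.6% of the 2517 of SK-N-BE(2). Another 101 probes were called in opposite directions. Across all 21448 probes the changes of the lines had a Pearson r of 0.6 and a Spearman rho of 0.457, over probes that are not independent and with the same hairpin in both lines. RTN3 fell by 5.06 in CHLA-90 and by 4.96 in SK-N-BE(2), with a difference of -0.09 ± 0.27. SREBF2 fell by 3.58 in CHLA-90 and by 3.90 in SK-N-BE(2) (difference 0.32 ± 0.27). SKP2 fell by 3.70 in CHLA-90 and by 4.09 in SK-N-BE(2) (difference 0.40 ± 0.24). SRM changed by -3.57 in CHLA-90 and -3.81 in SK-N-BE(2), and ISL1 by -3.28 in CHLA-90 and -3.00 in SK-N-BE(2). The difference between lines was not called for any of these 5 genes, which were picked after their values were seen.

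The response in CHLA-90 differed from that in SK-N-BE(2) by the interaction term in 1550 probes (7.23%), 835 of them with a more positive change in CHLA-90 (3.89%) and 715 with a more negative one (3.33%). GFRA2 fell by 2.75 in CHLA-90 and rose by 2.00 in SK-N-BE(2), a difference of -4.75 ± 0.33 (adjusted p = 5.29e-09). DBH changed by -5.27 in CHLA-90 and -1.07 in SK-N-BE(2), where it was dim, at a mean of 3.81 with shERK5-4 and 4.87 with shNSC. DLX5 fell by 4.15 in CHLA-90 and had a change of 0.05 in SK-N-BE(2), with means there of 5.78 with shERK5-4 and 5.73 with shNSC. ADCYAP1R1, the receptor of the neuropeptide PACAP, and SNAI1, a repressor of E-cadherin, fell in CHLA-90 (-2.27 and -2.36) and rose in SK-N-BE(2) (1.64 and 1.35). IGFBP5 fell by 2.87 in CHLA-90 and rose by 0.84 in SK-N-BE(2). SEMA3A rose by 2.63 in CHLA-90 and fell by 0.93 in SK-N-BE(2), where its shNSC mean was 7.40 in CHLA-90 and 13.03 in SK-N-BE(2). SYT9, LONRF2 and IER3 also rose in CHLA-90 (1.46, 0.73 and 0.76) and fell in SK-N-BE(2) (-2.26, -2.60 and -2.88). B4GALT6, the lactosylceramide synthase, fell by 0.93 in CHLA-90 and by 5.14 in SK-N-BE(2), and the BMP antagonist GREM1 fell by 1.21 in CHLA-90 and by 4.50 in SK-N-BE(2). GREM1 was dimmer in CHLA-90, at a mean of 5.13 with shERK5-4 and 6.35 with shNSC, than in SK-N-BE(2), at 9.33 and 13.84. The CHLA-90 call of GREM1 was lost without shNSC replicate 1 (adjusted p = 0.0617). Across lists, G1/S genes had a more positive change in CHLA-90 in 14 of 52 and a more negative one in 0, with medians of -0.49 in CHLA-90 and -0.93 in SK-N-BE(2). MAP kinase feedback genes had a more positive change in CHLA-90 in 7 of 28 and a more negative one in 0, with medians of -0.19 in CHLA-90 and -0.62 in SK-N-BE(2). Catecholamine and granule genes had a more negative change in CHLA-90 in 9 of 23 and a more positive one in 2, with medians of -0.72 in CHLA-90 and -0.32 in SK-N-BE(2).

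**Figure D5:**
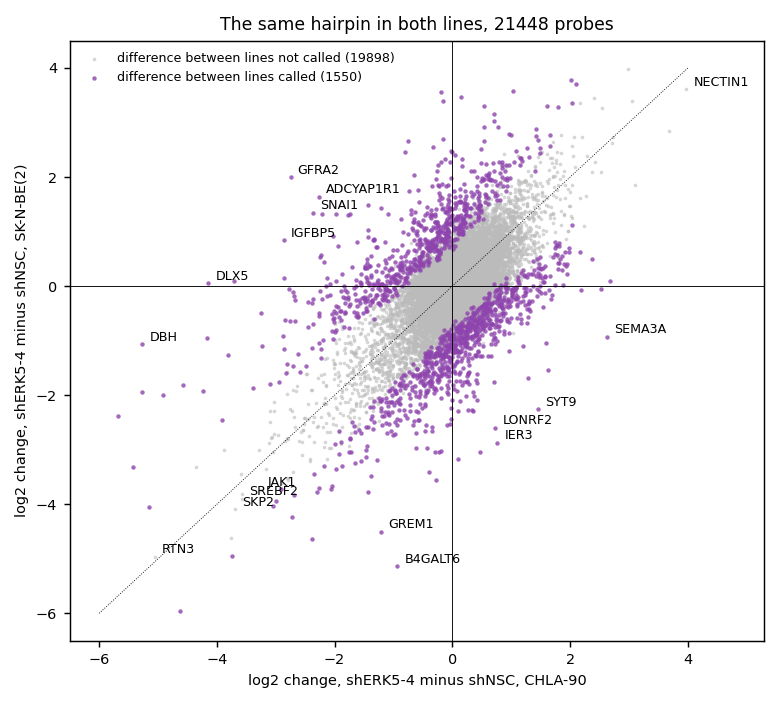
Log2 change with shERK5-4 against shNSC in CHLA-90 (horizontal axis) and in SK-N-BE(2) (vertical axis) for 21448 probes, with the 1550 probes whose change differed between the lines in purple and the rest in grey, and equal change as a dotted line. GFRA2 lies at -2.75 in CHLA-90 and 2.00 in SK-N-BE(2), and RTN3 close to the dotted line.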

How the data were processed

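RNA of 18 samples was measured on single-channel arrays. The authors deposited log2 signals per probe, rounded to 2 decimals. The log base was inferred from the values, and the sources used here do not state normalization, summarisation, software or build. Of 21448 probes 17709 had 1 gene symbol and 3739 had none. A gene with several probes is given by the brightest.

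A limma 3.58.1 model (R 4.3.3) with 6 group means was fitted to all 18 arrays, with eBayes and Benjamini-Hochberg adjustment over all probes; every adjusted p comes from it. It was tested on simulated data. Named genes were MAPK7, the 15 largest rises and falls with groups that did not overlap, and up to 6 members of each list. To these were added 6 genes in each direction of the other comparisons. The latter had a called difference and were picked only among genes called with shERK5-4 against shNSC in CHLA-90. Members and gene lists were chosen with earlier results of these data known. Promoter letters came from RefSeq. Alternatives covered normalization, dim probes, arrays in the fit, variance model, threshold and left-out arrays. No filter on low signal was used. Figures were drawn with matplotlib 3.10.9.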

Additional observations from a re-analysis of the deposited data

Results flagged for a closer look

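The response to shERK5-4 differed between CHLA-90 and SK-N-BE(2), by the interaction term of the limma model, in 23 of the genes named for the size of their change in CHLA-90 or of their difference between the lines, with adjusted p between 4.72e-09 and 0.00291. Genes named for their difference between the lines were picked because that difference was called, so their place here was fixed in advance. They are B4GALT6, SYT9, IER3, SEMA3A, LONRF2, GREM1, GFRA2, DBH, DLX5, ADCYAP1R1, SNAI1 and IGFBP5. Of these, DBH, DLX5 and SEMA3A were also named for the size of their change in CHLA-90. Each value below is the log2 change in CHLA-90 less the log2 change in SK-N-BE(2). The difference was positive for B4GALT6 4.20 (adjusted p = 5.13e-09), SYT9 3.71 (adjusted p = 5.29e-09), IER3 3.64 (adjusted p = 5.29e-09), SEMA3A 3.56 (adjusted p = 4.72e-09) and LONRF2 3.33 (adjusted p = 4.72e-09). It was also positive for GREM1 3.29 (adjusted p = 7.23e-05), EPB41L4A 2.58 (adjusted p = 1.12e-06), BHLHE40 2.57 (adjusted p = 7.57e-05) and TMEM97 1.32 (adjusted p = 0.000841). EPB41L4A was dim in SK-N-BE(2), at a mean of 3.14 with shERK5-4 and 3.04 with shNSC. GREM1 was dimmer in CHLA-90 than in SK-N-BE(2), as given above. It was negative for SYNPO2 -1.10 (adjusted p = 0.00291), CHGA -1.47 (adjusted p = 0.00208), LRRN3 -2.31 (adjusted p = 7.78e-06), CCDC3 -2.55 (adjusted p = 7.57e-05), ROR1-AS1 -2.77 (adjusted p = 1.05e-05), PRR16 -2.92 (adjusted p = 7.85e-08) and GPR50 -3.29 (adjusted p = 5.83e-07). Further negative differences were those of TMT1A -3.34 (adjusted p = 9.5e-07), IGFBP5 -3.70 (adjusted p = 2.25e-06), SNAI1 -3.71 (adjusted p = 5.29e-09), ADCYAP1R1 -3.90 (adjusted p = 1.78e-08), DLX5 -4.20 (adjusted p = 1.32e-05), DBH -4.20 (adjusted p = 8.32e-08) and GFRA2 -4.75 (adjusted p = 5.29e-09). Other genes named as members of lists also had a called difference and are not given here. Both groups of each line hold 3 arrays, too few for a test of single outlying arrays.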

How the results depend on the processing

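With an adjusted p below 0.01 the calls numbered 2481 for shERK5-4 against shNSC, 3715 for shERK5-4 against shERK5-5 and 756 for the difference between CHLA-90 and SK-N-BE(2), fewer by construction. When each array of the compared groups was left out in turn, these counts ranged from 2899 to 3120, from 4460 to 5598 and from 1094 to 1563, and MAPK7 from -1.18 to -0.96. With the replicate number as a block the counts were 4114, 6083 and 1664 and MAPK7 changed by -1.07 (adjusted p = 0.000693). Deviations from the group means of same-numbered shERK5-4 and shNSC arrays correlated by 0.044, -0.056 and 0.114. Arrays of different numbers gave values between -0.127 and 0.103. So few values cannot show whether same-numbered samples were handled together. Array weights gave 5822 calls for shERK5-4 against shNSC, the highest of the settings tried, and the fit to the compared groups alone gave 4960. Of 193 called named genes, 23 lost their call under at least 1 setting, and of 53 not called 20 gained one. Among 3679 values none changed sign where the main value or the other value was called. Changes of sign between uncalled values were not counted. CD14, for example, ran from -0.38 to 0.045 when single arrays were left out. The authors' normalization is unknown and could not be varied. Each group holds 3 arrays of a single hairpin.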

Other observations

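Genes that answer to low oxygen were lower in part. Of 26 hypoxia and glycolysis genes 6 were lower and 2 higher (30.8% called, against 18.3% of all probes), with a median of -0.05. The counts were 4 lower and 1 higher without shNSC replicate 2, shERK5-4 replicate 2 or shERK5-4 replicate 3. HIF1A, the oxygen-regulated transcription factor, had log2 signals of 14.76, 14.96 and 15.07 with shERK5-4 and 15.69, 15.65 and 15.66 with shNSC (-0.74 ± 0.16). EPAS1, its relative in sympathetic cells, had 5.77, 5.71 and 5.43 with shERK5-4 and 6.53, 6.53 and 6.54 with shNSC (-0.90 ± 0.23). The groups did not overlap in either gene. EGLN3 and EGLN1, enzymes that mark these factors for destruction, went opposite ways, by -0.89 ± 0.19 and 0.80 ± 0.20.

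YAP and TEAD target genes, a list that holds YAP1 itself, went both ways. Of 17 measured 4 were lower and 3 higher (41.2% called, against 18.3% of all probes), and the lower count was 2 without shNSC replicate 1. NT5E, the surface enzyme CD73, had 7.73, 7.75 and 7.88 with shERK5-4 and 10.08, 10.14 and 9.90 with shNSC (-2.25 ± 0.17). Homologous recombination and Fanconi genes held 3 lower and 0 higher of 15, EXO1, FANCI and BLM, between -0.64 and -0.74. That is 20% called, close to the 18.3% of all probes. The lower count of this list was 1 without shNSC replicate 1 or shERK5-4 replicate 3. Chaperone and unfolded protein response genes held 2 lower and 1 higher of 20 (15% called, below the 18.3% of all probes), led by the chaperone HYOU1 (-0.75 ± 0.16). Of the 3 calls, that of SEL1L did not survive leaving out replicate 2 of shERK5-4 or of shNSC, and that of SYVN1 did not survive leaving out shERK5-4 replicate 1 or 3 or shNSC replicate 3. NF-kB targets and cytokines held 1 lower and 1 higher of 19, the chemokine CCL2 at -1.13 ± 0.22 and NFKB2 at 0.77 ± 0.19. That is 10.5% called, also below the 18.3% of all probes.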
